A study of Homo sapiens with 6 samples.

Results

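Transcripts of 8 genes of the red cell membrane and of blood group antigens were examined in a pair of human leukemia cell lines, HEL and SET2. The genes were SLC4A1, EPB42, ANK1, GYPC, RHD, RHAG, KEL and ERMAP. They were taken from the array table by name: every probe set whose annotation gave 1 of these symbols and no other was a member. This gave 133 probe sets of 259224 with a single symbol, and 8 genes of 22320.

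HEL was established from an erythroleukemia and SET2 from an acute leukemia that arose out of essential thrombocythemia. In each line 1 culture carried an shRNA against IGF1R, 1 a miR-125a sponge and 1 the control backbone pLKO, all delivered by lentivirus, followed by 96 h in puromycin before RNA was taken. All 6 cultures thus shared the transduction and the drug, and each gave RNA for 1 array of the type Human Gene 2.0 ST. The source field of the sponge cultures speaks of miR125a itself, while their title and treatment fields name a sponge. A line stands for itself only, the cultures of 1 line differ in their construct, and nothing in the labels describes a repeat culture. The p-values therefore do not measure a spread between repeat cultures. They rest on how line differences vary between treatments, and treatment changes between lines, combined with a spread estimated over all genes.

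The red cell membrane is a lipid bilayer held to a spectrin network. SLC4A1 encodes band 3, the chloride and bicarbonate exchanger, which is tied to that network through ankyrin (ANK1) and through protein 4.2 (EPB42), while glycophorin C (GYPC) forms a separate anchor through protein 4.1. RHAG and RHD encode the Rh-associated glycoprotein and the D antigen of the Rh complex, KEL the Kell endopeptidase and ERMAP the Scianna antigen. Erythroid genes of this kind are commonly bound by GATA1, a zinc finger factor, and by KLF1, which binds CACCC-type sequences.

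Upstream sequence from RefSeq (GRCh38.p14) was read for 6 of the members. It came in 8 windows of 250 bases that end just before an annotated start. The stretches below are shown because EPB42, RHD and GYPC were higher in HEL, RHAG did not pass the test, and ERMAP stood above its control in the HEL array with IGF1R shRNA. They run 5′ to 3′ on the gene's strand, and capitals mark GATA motifs on either strand. The motif searched was AGATAA, with T also allowed as its first letter and G as its last. In GYPC, in RHAG and at the second place in ERMAP the motif lies on the other strand and is printed as its reverse complement. The positions are chr15:43221019-43221268 (minus strand) for EPB42, chr1:25272236-25272485 (plus) for RHD, chr2:126655908-126656157 (plus) for GYPC, chr6:49636840-49637089 (minus) for RHAG and chr1:42825311-42825560 (plus) for the second of the ERMAP starts. The EPB42 stretch and the second ERMAP stretch lie within the longest annotated span of their gene.
EPB42: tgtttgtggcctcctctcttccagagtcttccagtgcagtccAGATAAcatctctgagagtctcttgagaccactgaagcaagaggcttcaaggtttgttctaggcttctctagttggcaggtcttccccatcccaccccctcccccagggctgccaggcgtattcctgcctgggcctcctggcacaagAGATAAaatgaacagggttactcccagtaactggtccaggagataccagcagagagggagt
RHD: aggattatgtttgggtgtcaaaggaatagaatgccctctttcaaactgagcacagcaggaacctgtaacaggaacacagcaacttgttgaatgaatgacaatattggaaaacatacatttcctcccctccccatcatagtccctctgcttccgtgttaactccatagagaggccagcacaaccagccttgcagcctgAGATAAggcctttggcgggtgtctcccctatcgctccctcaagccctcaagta
GYPC: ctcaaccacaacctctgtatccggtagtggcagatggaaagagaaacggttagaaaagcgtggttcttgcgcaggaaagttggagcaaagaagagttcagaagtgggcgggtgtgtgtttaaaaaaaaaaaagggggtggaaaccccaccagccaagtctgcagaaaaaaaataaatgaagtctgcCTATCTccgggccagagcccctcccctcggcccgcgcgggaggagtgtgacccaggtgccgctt
RHAG: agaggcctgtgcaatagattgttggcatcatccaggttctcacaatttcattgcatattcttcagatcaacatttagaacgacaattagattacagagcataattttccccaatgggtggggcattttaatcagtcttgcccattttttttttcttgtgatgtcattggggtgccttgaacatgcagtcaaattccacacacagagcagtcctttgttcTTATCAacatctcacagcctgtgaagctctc
ERMAP: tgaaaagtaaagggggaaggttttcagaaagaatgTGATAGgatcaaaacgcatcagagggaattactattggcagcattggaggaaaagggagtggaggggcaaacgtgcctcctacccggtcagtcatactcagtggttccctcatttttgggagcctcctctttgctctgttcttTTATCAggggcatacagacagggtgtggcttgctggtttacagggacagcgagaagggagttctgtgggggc

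A GATA motif of this kind was present in 7 of the 8 windows and in all 6 members that were read. KEL, not printed, had a pair of them at 62 and 26 bases before its start. The window without one was that of the first ERMAP start. Over all 35116 RefSeq windows of the same length, 22.3% held at least 1. The CACCC-type motif CCNCNCCC, on either strand, was present in 8 of 8 windows, against 53.4% of all windows. Both RHD windows overlap and hold 1 and the same motif, at 53 bases before the first start and 76 before the other. These are matches of letters, and no binding was measured. No upstream sequence was found for SLC4A1. Windows on chromosome 8, where ANK1 lies, were left out of the member counts, so ANK1 is not among the 6.

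The arrays had median log2 levels between 5.69 and 5.75. The table gives no detection call, so a level near the lower quartile of an array, 3.87 to 3.90, cannot be told from background, and in such bulk RNA fewer cells that use a gene and less RNA per cell cannot be told apart. For IGF1R, the transcript that the shRNA targets, no decrease could be detected. It read 8.56 in the HEL array labelled IGF1R shRNA against 8.63 in its control, and 8.33 against 8.32 in SET2 (log2 change -0.03, SE 0.15, adjusted p = 0.973). These arrays are therefore called by their label. Over all genes, 11.6% were called higher and 13.0% lower in HEL than in SET2 by the test described below. Among the marker lists, 6 of 9 measured erythroid markers were lower in HEL than in SET2 and 1 was higher, 3 of 7 megakaryocyte markers and 2 of 7 lymphoid markers were higher and 0 lower, and 2 of 10 myeloid and 2 of 4 progenitor markers were lower and 0 higher. The erythroid marker that was higher, HBE1, averaged 10.49 in HEL and 5.11 in SET2 (difference 5.38), the largest gap of its list. Of the lower ones, HBB averaged 3.99 in HEL, near the lower quartile, and HBG1 rests on 1 probe set. The labels call both lines acute myeloid. Among the 10 myeloid markers the lowest mean was that of CD14, with 3.94 in HEL and 3.81 in SET2. The highest was CD33 in HEL (8.62) and LYZ in SET2 (9.11), and the medians were 5.47 (HEL) and 5.38 (SET2). The granule marker MPO was below the median in each line, with means of 4.33 (HEL) and 4.51 (SET2). The part of these markers in the results below was not tested.

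The largest contrasts among the 8 genes lay between the cell lines. SLC4A1 was lower in HEL than in SET2, whereas EPB42, RHD, GYPC and, by a smaller margin, KEL were higher in HEL. RHAG, ERMAP and ANK1 did not pass the test. Thus 4 members were higher in HEL, where 11.6% of all genes were, and 1 was lower, where 13.0% of all genes were. The lines were compared within treatments in limma, with Benjamini-Hochberg adjustment over all genes and 0.05 as threshold, and differences are HEL minus SET2 on the log2 scale. The median difference over the members was 0.20, and over all genes it was 0.008. Where the arrays of the lines are said below not to overlap, the share of all genes without overlap was not counted. IGF1R and RHCE, which are not members, did not overlap either, so a lack of overlap does not set a member apart.

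**Figure D1:**
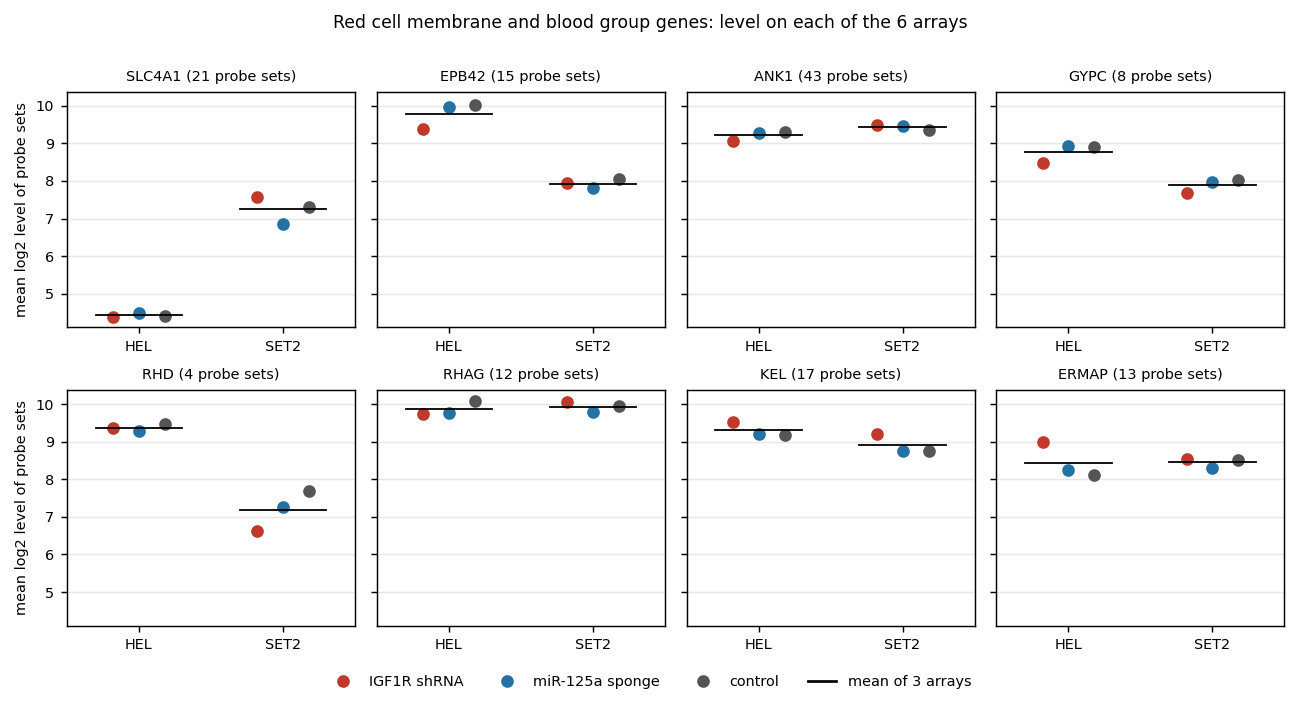
Mean log2 level over the probe sets of each gene (vertical axis) on each array, HEL left and SET2 right, with colours for the construct and a line for the mean of 3 arrays. SLC4A1 lies between 4.39 and 4.48 in HEL and between 6.86 and 7.57 in SET2, while EPB42, RHD and GYPC lie higher in HEL on every array.

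SLC4A1, the anion exchanger, had the widest gap. In HEL its level was 4.39 with IGF1R shRNA, 4.48 with the sponge and 4.41 in the control, and in SET2 it was 7.57, 6.86 and 7.32 in the same order. The groups did not overlap, and the HEL arrays lay closer together than the SET2 arrays. The mean was 4.43 ± 0.05 in HEL and 7.25 ± 0.36 in SET2 (SD, n = 3 each). The difference was -2.82 (SE 0.17, 95% confidence interval -3.23 to -2.42, adjusted p = 9e-05). This is an average over probe sets of which 10 could not be told from background in HEL, so it is no exact fold, and it ran from -3.80 to -1.33 over the 13 alternatives, all past the threshold.

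The probe sets of SLC4A1 did not all carry this difference. Of 21, 12 were lower in HEL past the threshold, where 2.63% of all probe sets were, and 0 were higher. At 10 probe sets all 3 HEL arrays stood in the lower quartile of their array, while the same 10 averaged 4.33 to 9.02 in SET2, with a median of 7.52, and 0 of them stood in the lower quartile of all 3 SET2 arrays. Another 4 were bright in HEL as well, with HEL means of 7.31 to 8.43, and these differed by only -1.33 to -0.03. The brightest probe set, 16845646, read 8.11, 8.23 and 7.78 in HEL and 9.66, 9.08 and 9.36 in SET2 (difference -1.33, SE 0.27, adjusted p = 0.0636 over all probe sets). Over all 21 the median difference was -2.89, and over the other 17, leaving those 4 aside, it was -3.46. The 10 and the 4 were picked by their HEL level, so their contrast with SET2 is partly set by that choice. A single probe set, 16845649, was on the other side, at 0.28 (SE 0.39) with a mean level of 3.83. Probe set 16845646 alone, taken for the gene, gave -1.33 in the fit over genes, still past the threshold (adjusted p = 0.0182).

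EPB42, whose protein 4.2 binds band 3 and ankyrin, ran the other way. In HEL it read 9.39 with IGF1R shRNA, 9.96 with the sponge and 10.03 in the control, and in SET2 7.95, 7.82 and 8.04. Every HEL array stood above every SET2 array. The means were 9.79 ± 0.36 in HEL and 7.93 ± 0.11 in SET2 (SD, n = 3 each), a difference of 1.86 (SE 0.16, 95% confidence interval 1.47 to 2.25, adjusted p = 0.000425) or 3.63-fold. All 15 probe sets were higher in HEL, by 0.15 to 2.77, and 11 passed the threshold, where 2.49% of all probe sets were called higher. Those with a mean level of 8 or more, 11 in number, lay between 1.57 and 2.53, and the 4 dimmer ones between 0.15 and 2.77, with a median of 1.11. The brightest, 16808051, averaged 11.85 in HEL and 9.86 in SET2.

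**Figure D2:**
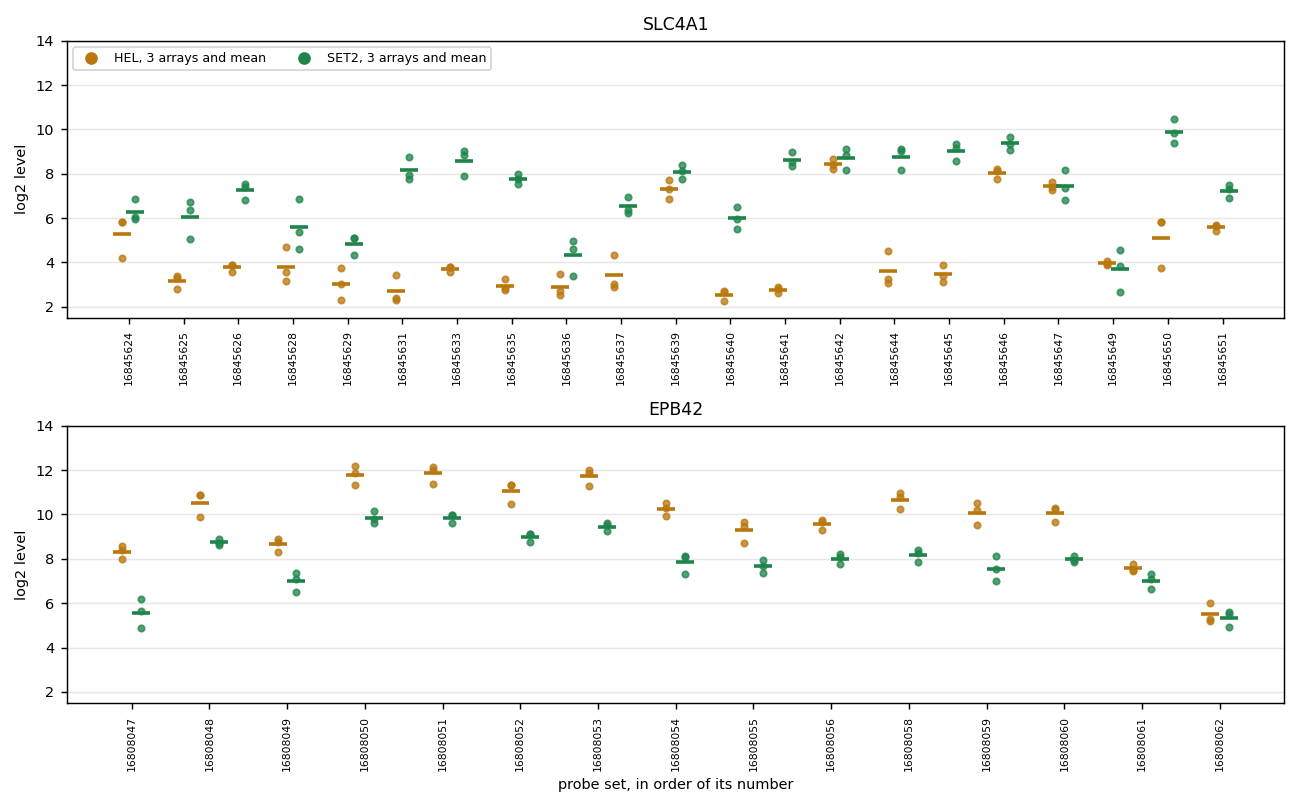
Log2 level of each probe set of SLC4A1 (upper panel) and EPB42 (lower panel), in order of probe set number, with 3 HEL arrays (left of each pair, ochre) and 3 SET2 arrays (green) and a bar for each mean. At SLC4A1, 4 probe sets have HEL means of 7.31 to 8.43 while the other 17 lie between 2.54 and 5.58, and at EPB42 the HEL means stand above the SET2 means throughout.

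ANK1, the ankyrin that joins band 3 to spectrin, did not pass the test. It read 9.06, 9.27 and 9.30 in HEL (IGF1R shRNA, sponge, control) and 9.50, 9.46 and 9.36 in SET2. The groups just failed to overlap, with 9.30 as the highest HEL value and 9.36 as the lowest SET2 value. The difference was -0.23 (SE 0.13, 95% confidence interval -0.54 to 0.07, adjusted p = 0.263), so that a HEL level between 0.689 and 1.05 times that of SET2 lies within the interval. Of its 43 probe sets 39 were lower in HEL and 0 passed the threshold, and the 32 brighter ones had a median of -0.15. The brightest, 17076678, differed by -0.01 (SE 0.23). Of the 4 that leaned to HEL, 17076691, the dimmest, had the widest gap, at 0.33 (SE 0.40), and the others were 17076635 (0.18, SE 0.25), 17076645 (0.12, SE 0.31) and 17076686 (0.07, SE 0.23).

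GYPC, the glycophorin of the protein 4.1 anchor, was higher in HEL. Its levels were 8.47, 8.92 and 8.90 in HEL (IGF1R shRNA, sponge, control) and 7.68, 7.97 and 8.02 in SET2, without overlap. The difference was 0.87 (SE 0.12, 95% confidence interval 0.59 to 1.15, adjusted p = 0.00242), or 1.83-fold. All 8 probe sets were higher in HEL, from 0.12 to 1.37, and 1 passed on its own. At the brightest, 16885297, the means were 11.69 in HEL and 10.45 in SET2.

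RHD, the D antigen gene, was likewise higher in HEL. It read 9.35, 9.29 and 9.47 in HEL and 6.63, 7.26 and 7.68 in SET2 under IGF1R shRNA, sponge and control. The groups did not overlap, and the SET2 arrays were spread more widely than the HEL arrays. The means of 9.37 ± 0.10 in HEL and 7.19 ± 0.53 in SET2 (SD, n = 3 each) differed by 2.18 (SE 0.19, 95% confidence interval 1.73 to 2.63, adjusted p = 0.000391), or 4.53-fold. Its 4 probe sets all passed, at 1.79 to 2.61. RHD shares nearly all of its sequence with its neighbour RHCE, and how far probes separate the copies could not be checked here, so the value may hold RNA of both. RHCE averaged 6.85 in HEL and 5.86 in SET2 (difference 0.98, SE 0.12, adjusted p = 0.00148), and its brightest probe set, 16683685, differed by 1.89 (SE 0.25), close to the 1.97 (SE 0.26) of the brightest RHD probe set, 16660898.

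RHAG, the partner that carries RHD to the membrane, did not pass the test between the lines. Its values were 9.74, 9.75 and 10.09 in HEL and 10.05, 9.79 and 9.95 in SET2 under IGF1R shRNA, sponge and control. The groups overlapped. The difference was -0.07 (SE 0.13, adjusted p = 0.774), and its 95% confidence interval of -0.39 to 0.25 spans a 0.763-fold to 1.19-fold HEL level. Of 12 probe sets, 6 leaned to each line, and the brightest, 17019854, averaged 11.38 in HEL and 11.17 in SET2.

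KEL, the Kell antigen gene, was slightly higher in HEL. It read 9.53, 9.20 and 9.17 in HEL and 9.20, 8.76 and 8.76 in SET2 under IGF1R shRNA, sponge and control. The groups overlapped, as the HEL control lay just under the SET2 array with IGF1R shRNA, but within each treatment HEL was higher, by 0.34, 0.44 and 0.41. The difference was 0.39 (SE 0.12, 95% confidence interval 0.12 to 0.67, adjusted p = 0.0482), or 1.31-fold. This call was lost in 8 of 13 alternatives, with adjusted p between 0.0396 and 0.271 over all 13. It did not pass without the control array or without the sponge array of either line (adjusted p = 0.199 and 0.271). Of 17 probe sets 16 were higher in HEL and 0 passed on their own. The exception, 17063893, stood at -0.42 (SE 0.31), and the brightest, 17063913, at 0.43 (SE 0.23).

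ERMAP, the Scianna antigen gene, did not differ between the lines beyond the spread of the arrays. It read 8.98, 8.25 and 8.10 in HEL and 8.53, 8.31 and 8.50 in SET2 under IGF1R shRNA, sponge and control. The HEL arrays enclosed the SET2 arrays, since the highest and the lowest value were both in HEL. The difference was -0.004 (SE 0.18, 95% confidence interval -0.43 to 0.42, adjusted p = 0.991). Its probe sets divided evenly, with 6 higher in HEL, 6 lower and 1 equal.

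**Figure D3:**
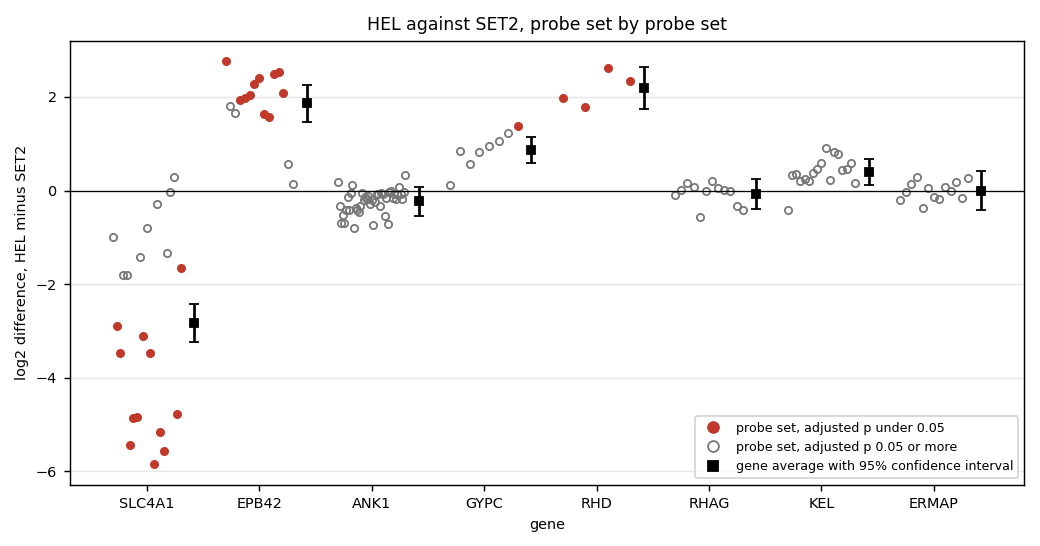
Log2 difference HEL minus SET2 (vertical axis) of each probe set of the 8 genes, filled where the adjusted p over all probe sets was under 0.05, with the gene average and its 95% confidence interval as a black square. SLC4A1 spans -5.85 to 0.28, the EPB42 and RHD probe sets all lie above 0, and RHAG, KEL, ERMAP and ANK1 have 0 filled points.

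Other genes of the red cell surface, from lists chosen with earlier results of these data known, were read from the same fit. Among 19 measured genes of the membrane skeleton and its anchors, 2 were higher and 9 lower in HEL, against 11.6% and 13.0% of all genes, and their median difference was -0.38. The 2 largest differences among those lower in HEL were ADD2, a cap of the spectrin junction, at -2.74 (SE 0.12, adjusted p = 2.63e-05), and the actin cap TMOD1 at -1.71 (SE 0.13, adjusted p = 0.000212). The 2 that were higher were the spectrin gene SPTBN1 at 1.43 (SE 0.17, adjusted p = 0.0013) and the ankyrin gene ANK2 at 1.23 (SE 0.12, adjusted p = 0.000604). Among 34 other blood group genes, 6 were higher and 15 lower in HEL, with a median of -0.37. The 2 farthest in each direction were ABO, the A and B transferase gene, at -2.19, the urea transporter gene SLC14A1 of the Kidd group at -2.00, B3GALNT1, the globoside synthase gene, at 1.98, and RHCE at 0.98.

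The same shares of all genes, 11.6% higher and 13.0% lower in HEL, stand behind the smaller lists. Of 4 relatives of the Rh and band 3 genes, 1 was higher in HEL, the anion exchanger gene SLC4A2, at 0.54 (SE 0.14, adjusted p = 0.0276), and 0 were lower. SLC4A2 thus stood on the opposite side from SLC4A1. Of 11 red cell transporters and carbonic anhydrases, 0 were higher and 4 lower in HEL, led by the iron exporter gene SLC40A1 at -1.35 (SE 0.14) and the potassium chloride cotransporter gene SLC12A4 at -0.73 (SE 0.15). Of 8 erythroid transcription factors, 1 was higher, GFI1B at 0.45 (SE 0.12, adjusted p = 0.0338), and 3 were lower, including KLF1 at -0.98 (SE 0.14, adjusted p = 0.0034) and LMO2, a bridging subunit of the GATA1 complex, at -0.78 (SE 0.12, adjusted p = 0.00485). KLF1 read 7.92, 7.94 and 8.32 in HEL and 9.00, 9.11 and 8.99 in SET2 under IGF1R shRNA, sponge and control. GATA1 was among the 4 that did not pass, at 10.26 in HEL and 10.04 in SET2 (difference 0.21, SE 0.13, adjusted p = 0.314).

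**Figure D4:**
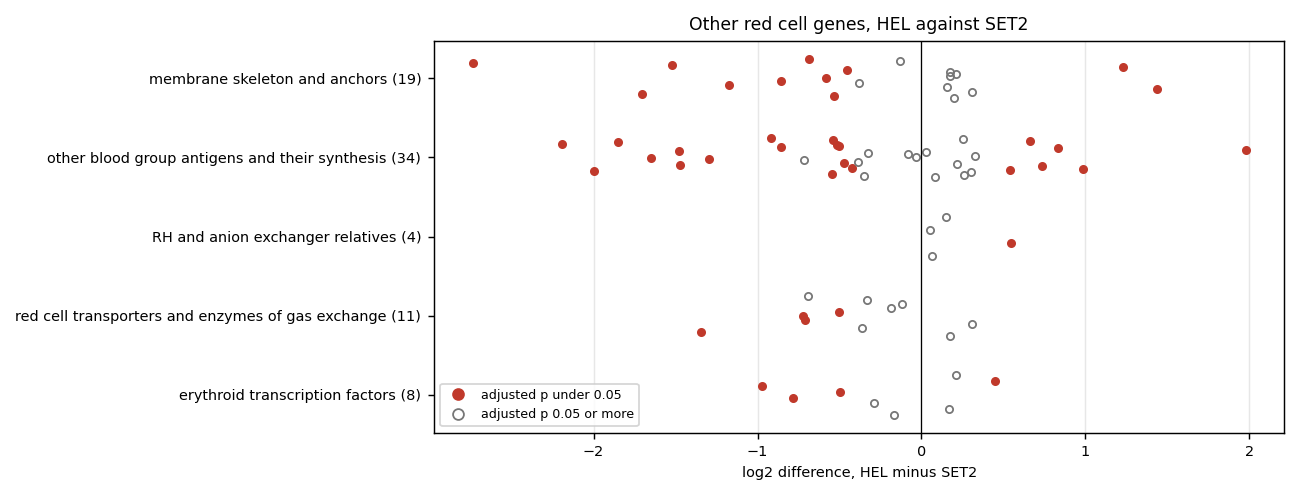
Log2 difference HEL minus SET2 (horizontal axis) of single genes in 5 lists of other red cell genes, filled where the adjusted p was under 0.05, with the number measured in brackets. Filled points lie mostly left of 0, with ADD2 at -2.74 farthest left and B3GALNT1 at 1.98 farthest right.

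The next comparison asked whether an shRNA directed at IGF1R was accompanied by changes in the 8 genes. None of them passed the test, and neither did any other gene: limma called 0 of 22320 (0%), with 1656 (7.42%) at an unadjusted p under 0.05. Without the IGF1R shRNA array of SET2 the count was 729, with 0 members among them, and ERMAP and EPB42 had adjusted p = 0.0731 and 0.0819. Of the members 3 were at an unadjusted p under 0.05, KEL upward and RHD and GYPC downward. Changes are given within each line, array against array, as IGF1R shRNA minus control. A change in 1 line alone has no replicate check. Probe sets of 1 gene read the same RNA samples, so counts of them are no replicates of a change. How often other genes reach such counts is given only for every probe set on 1 side in the HEL array with IGF1R shRNA. In the lists of other red cell genes, too, 0 passed in each.

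KEL had nearly the same change in both lines, 0.36 in HEL and 0.44 in SET2. The average was 0.40 (SE 0.14, 95% confidence interval 0.06 to 0.73, adjusted p = 0.643). Of 17 probe sets 14 were higher in both lines and 0 lower in both. GYPC also had 1 direction, with changes of -0.44 (HEL) and -0.34 (SET2) that averaged -0.39 (SE 0.14, adjusted p = 0.645), and 6 of its 8 probe sets were lower in both lines. At its 3 probe sets of mean level 8 or more, the mean change was -0.31 in HEL and -0.59 in SET2.

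ERMAP had its larger value in HEL. There it stood 0.88 above the control (1.84-fold), and in SET2 0.02 above it. All 13 probe sets were higher in HEL, by 0.40 to 1.52, while 5 were higher and 8 lower in SET2. Among genes of 5 or more probe sets, 2.57% had every probe set higher in this HEL array than in its control. The change ranked as number 421 of 22320 in HEL. Averaged over the lines it was 0.45 (SE 0.22, adjusted p = 0.696), and whether the lines differ in it could not be tested with 1 array each.

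EPB42 showed a change of -0.65 in HEL (1.57-fold lower) and -0.09 in SET2. In HEL 15 of 15 probe sets were lower, by 0.07 to 0.99, where 2.39% of genes of 5 or more probe sets had every probe set lower. In SET2 9 were lower and 5 higher. The average was -0.37 (SE 0.20, adjusted p = 0.72). RHD had the reverse order of lines, with -0.12 in HEL and -1.04 in SET2 (2.06-fold lower), which was number 81 from the most negative in SET2. Its 4 probe sets were all lower in SET2, at -1.77 to -0.75, and the average was -0.58 (SE 0.23, adjusted p = 0.662).

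RHAG, ANK1 and SLC4A1 had changes of opposite sign in the lines. RHAG had a change of -0.35 in HEL against 0.10 in SET2, with 11 of 12 probe sets lower in HEL and 10 of 12 higher in SET2. ANK1 stood at -0.24 and 0.13. The HEL value of ANK1 came mostly from dim probe sets: the 11 under a mean level of 8 averaged -0.82, down to -3.04, while the 32 brighter ones averaged -0.04. SLC4A1 differed by -0.02 in HEL and by 0.25 in SET2. Averaged over the lines, the change was 0.12 for SLC4A1 (SE 0.21, adjusted p = 0.921), -0.13 for RHAG (SE 0.16, adjusted p = 0.88) and -0.05 for ANK1 (SE 0.16, adjusted p = 0.959).

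The miR-125a sponge was set against the same controls, so the control arrays are shared by both comparisons. Limma called 0 of 22320 genes (0%), with 412 (1.85%) at an unadjusted p under 0.05, and of the 8 members 0 passed and 0 were under that unadjusted value. RHD had the most negative average, -0.30 (SE 0.23, 95% confidence interval -0.85 to 0.25, adjusted p = 1), from -0.19 in HEL and -0.42 in SET2. RHAG stood at -0.34 and -0.16 (average -0.25, SE 0.16), with 8 of 12 probe sets lower in both lines. SLC4A1 stood at 0.07 in HEL and -0.46 in SET2, where 17 of its 21 probe sets were lower than in the control. ERMAP stood at 0.14 and -0.19, EPB42 at -0.07 and -0.22, and KEL, GYPC and ANK1 within 0.10 of their control in either line.

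**Figure D5:**
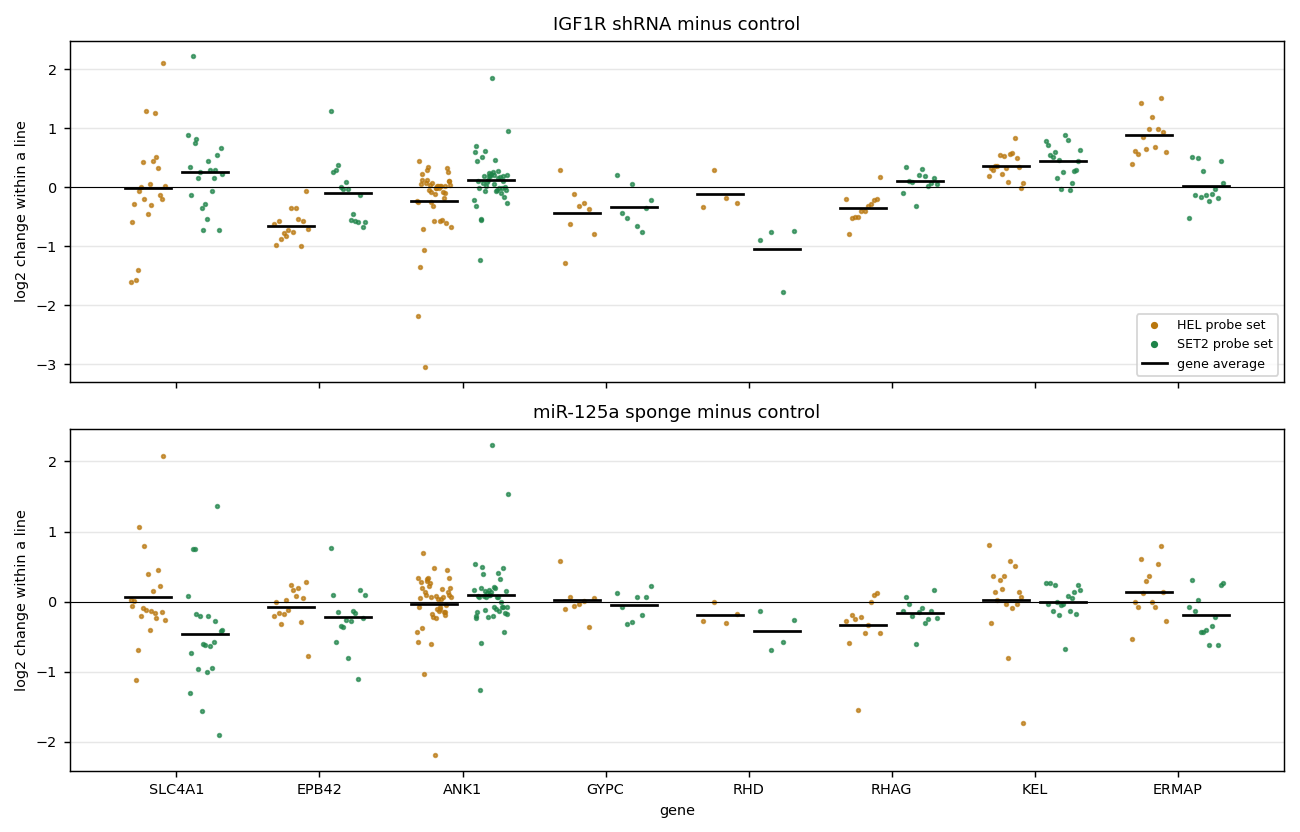
Log2 change within a line (vertical axis) for IGF1R shRNA minus control (upper panel) and sponge minus control (lower panel), with a point per probe set, ochre for HEL and green for SET2, and a bar for the gene average. In the upper panel ERMAP averages 0.88 in HEL and 0.02 in SET2, RHD -0.12 and -1.04, and KEL 0.36 and 0.44.

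Across the 6 arrays, the genes most like each member were sought among 18558 others of 3 or more probe sets, by the Euclidean distance of log2 profiles centred on their own means. EPB42 was nearest to PDE1B, a phosphodiesterase gene, at a distance of 0.15, and to SDC2, a syndecan gene, at 0.25. SLC4A1 was nearest to the complement factor gene CFI and the collagen gene COL14A1, both at 0.27, and RHD to NXF3 (0.31) and DOCK2 (0.34). GYPC lay at 0.08 from the kinase gene DAPK1 and 0.12 from IL16, KEL at 0.10 from MBTD1 and 0.13 from CELSR3, and ERMAP at 0.12 from ZNF684 and 0.13 from TUSC3. RHAG lay at 0.07 from both BUD31 and FBXL2, and ANK1 at 0.09 from LOC100233156 and ADAMTS5. No member was among the 2 nearest of another, which with 2 picks among 18558 genes does not show that the members are unlike each other.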

How the data were processed

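The authors deposited log2 values of 352859 probe sets for each of 6 arrays. The submitters' processing notes name Affymetrix Expression Console as the software. How it was set (summarisation, background, normalization, build) is not given in the sources used here. That the values are log2 was judged by their range, 1.61 to 13.99. Gene symbols came from the platform annotation: 259224 probe sets had 1 symbol and were averaged per symbol into 22320 genes, and 13116 with several symbols and 80519 with none were left out.

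All arrays were fitted together in limma 3.58.1 (R 4.3.3; lmFit, eBayes), the terms being treatment and line, per gene and, separately, per probe set, which left 2 residual and 4.78 prior degrees of freedom for genes. Replicate 1 is HEL and replicate 2 is SET2, so the pairing of arrays is by cell line as the labels give it. P-values were two-sided, adjusted by Benjamini-Hochberg over all genes or all probe sets, with 0.05 as threshold. The fit was tested on simulated data. The number of arrays limits the precision. Named were all members, their brightest probe sets and, where few, those against the gene's direction, the 2 nearest profiles, and up to 2 called genes per direction in each list. GATA1, whose motif was searched, was named as well. The members and lists were chosen with earlier results of these data known. Alternatives were other ways of combining probe sets, brightness filters, renormalization, no block, another moderation and leaving out each array. Plots used matplotlib 3.10.9 under Python 3.11.15, with pandas 2.3.3.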

Additional observations from a re-analysis of the deposited data

Results flagged for a closer look

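Under the same construct, some members stood above their control in 1 line and below it in the other, each value being 1 array against 1 control array, and the difference between the lines was not tested. Under IGF1R shRNA, SLC4A1 stood at -0.02 in HEL and 0.25 in SET2, RHAG at -0.35 and 0.10, and ANK1 at -0.24 and 0.13. Under the sponge, SLC4A1 stood at 0.07 in HEL and -0.46 in SET2, ERMAP at 0.14 and -0.19, GYPC at 0.02 and -0.05, and ANK1 at -0.03 and 0.10. Several of these values are small, and the median probe set of ANK1 changed by only -0.02 in HEL under IGF1R shRNA. How many of all genes have opposite signs in the lines was not counted.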

How the results depend on the processing

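Between the lines, SLC4A1, EPB42, RHD and GYPC kept their direction and their call in all 13 alternatives, with log2 differences of -3.80 to -1.33, 1.72 to 2.07, 1.91 to 2.48 and 0.83 to 1.24. KEL kept its direction (0.37 to 0.59) and lost its call in 8. The count of called members was 5 or 4. The 5475 called genes became 2613 with the brightest probe set and 2871 to 6330 when single arrays were left out, and the 13284 called probe sets became 23252 with only probe sets at or above the median level and 2424 to 2963 without single arrays. Leaving out either array of a treatment gave the same line difference, since its partner then adds nothing to it. With no replicate block (the lines compared without treatment as a term), 5669 genes were called and KEL was not. For IGF1R shRNA the count of 0 genes ran from 0 to 729. The 729 came without the IGF1R shRNA array of SET2, where the lone HEL array is assumed to vary like the others, and 0 members passed. The sponge count was 0 throughout. Signs turned only for values far from any call. With the median of the probe sets these were ANK1 under shRNA (0.08) and sponge (-0.035), ERMAP (0.09) and GYPC (0.005) under the sponge, and RHAG between lines (0.003). With the brightest probe set they were ANK1 (-0.075) and SLC4A1 (0.085) under the sponge, and ERMAP (0.13) and RHAG (0.21) between lines. With brighter probe sets only, they were ANK1 under shRNA (0.013) and GYPC under the sponge (0.009), and with renewed quantile normalization ERMAP between lines (0.002) and, under the sponge, ERMAP (0.003) and GYPC (0.009). Without single arrays the ranges that crossed 0 were -0.23 to 0.19 for ERMAP and -0.18 to 0.046 for RHAG between lines, -0.21 to 0.098 for ANK1, -0.30 to 0.05 for RHAG and -0.15 to 0.38 for SLC4A1 under shRNA, and under the sponge -0.093 to 0.16 for ANK1, -0.36 to 0.072 for EPB42, -0.32 to 0.27 for ERMAP, -0.073 to 0.045 for GYPC, -0.019 to 0.047 for KEL and -0.52 to 0.14 for SLC4A1. The cause of these turns was not tested.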

Other observations

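Some further blood group genes, chosen after their values were seen, stood above their controls in the HEL array labelled IGF1R shRNA. ART4, the Dombrock antigen gene, read 9.07 there, 7.83 with the sponge and 7.66 in the control in HEL, against 7.58, 7.21 and 7.27 in SET2, and its average change was 0.86 (adjusted p = 0.623). ICAM4, the Landsteiner-Wiener antigen gene, read 8.50, 7.76 and 7.90 in HEL and 7.53, 7.14 and 7.29 in SET2, an average change of 0.42 (adjusted p = 0.649). Neither passed the test for the shRNA. Other genes of the same list stood below the control in that HEL array. SLC44A2 read 8.39 there against 9.03, and AQP3 4.95 against 5.48, both also chosen after their values were seen. Over the 34 measured genes of the list the median of the average changes was 0.07.

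Partners of 2 of the members, also chosen after their values were seen, did not pass the test between the lines. XK, whose protein is linked to Kell, averaged 9.04 in HEL and 8.96 in SET2 (difference 0.08, SE 0.12, adjusted p = 0.696). EPB41, which encodes protein 4.1, averaged 9.58 and 9.37 (difference 0.21, SE 0.13, adjusted p = 0.334).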
